A study of Mus musculus with 8 samples.

Results

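The genes described here encode the ephrins and semaphorins, which cells use as guidance cues, together with their Eph, plexin and neuropilin receptors. They were taken from the platform annotation by symbol: every Epha, Ephb, Efna and Efnb gene, every Sema gene, every gene of plexin families A to D, and Nrp1 and Nrp2. This gave 52 genes of 18194 with a probe set (a group of short array probes for 1 transcript) that carries exactly 1 symbol. Ephb2 is not among the 52, so the EphB family was not read in full. Each gene was read from its brightest probe set, that is, the one with the highest mean over all arrays. RNA came from the mandibular arch, the embryonic tissue of the future lower jaw, of C57BL/6J embryos of undetermined sex at embryonic day 11.5, on 8 Affymetrix arrays. The mutants (4 arrays) carried Alk5 fl/fl with Wnt1-Cre, a driver that inactivates the floxed gene in neural crest cells, so the other cells of the arch keep Alk5. The controls (4 arrays) carried Alk5 fl/fl and no Cre driver is named for them, so effects of the driver and of the inactivation cannot be told apart. Alk5 is another name of Tgfbr1, the type I receptor of TGF-beta. The comparison asks which guidance genes differ in an arch whose crest cells were targeted to lose this receptor, a loss taken here from the genotype label. Nothing in the labels says that arrays came from separate litters, so the p-values describe the spread among these 8 samples alone, which may be technical.

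Ephrins are membrane-bound ligands, held by a lipid anchor in the A class and by a transmembrane segment in the B class, and Eph receptors on neighbouring cells answer them with repulsion or adhesion; the ephrin can also signal back into its own cell. Class 3 semaphorins are secreted and act through neuropilins with A-type plexins, whereas the semaphorins of classes 4 to 7 are tied to the membrane and mostly bind plexins directly. In the head these cues are known for keeping streams of neural crest cells apart, for patterning cranial nerves and vessels, and, for the ephrin-B and EphB proteins, for growth of the palate in mice.

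Of the 52 guidance genes, 5 fell in the mutants, 0 rose and 47 did not pass the threshold, an adjusted p under 0.05 in limma over all 18194 genes. The 5 were the receptor genes Epha4, Epha5 and Ephb3 and the membrane semaphorin genes Sema4a and Sema4f. At the same threshold 2.14% of all genes were called, 1.31% as lower and 0.835% as higher in the mutants, where the guidance genes had 9.62%. With an unadjusted limma p under 0.05, there were 12 of the 52 guidance genes, 9 lower and 3 higher. Of all 18194 genes 2450 (13.5%) reached this level, 1628 lower and 822 higher. The median log2 fold change, mutant minus control throughout, was -0.07 over the guidance genes and -0.01 over all genes, and 34 of 52 and 52% of all genes were below 0. The 2 groups of arrays did not overlap for 10 of the 52 guidance genes, and for 1872 of all 18194 genes (10.3%). For 7 guidance genes all mutants were lower (13.5%, where 7.02% of all genes had this). For 3 all mutants were higher (5.77%, where 3.27% of all genes had this). In bulk tissue, fewer cells of a type and less RNA per cell cannot be told apart.

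**Figure D1:**
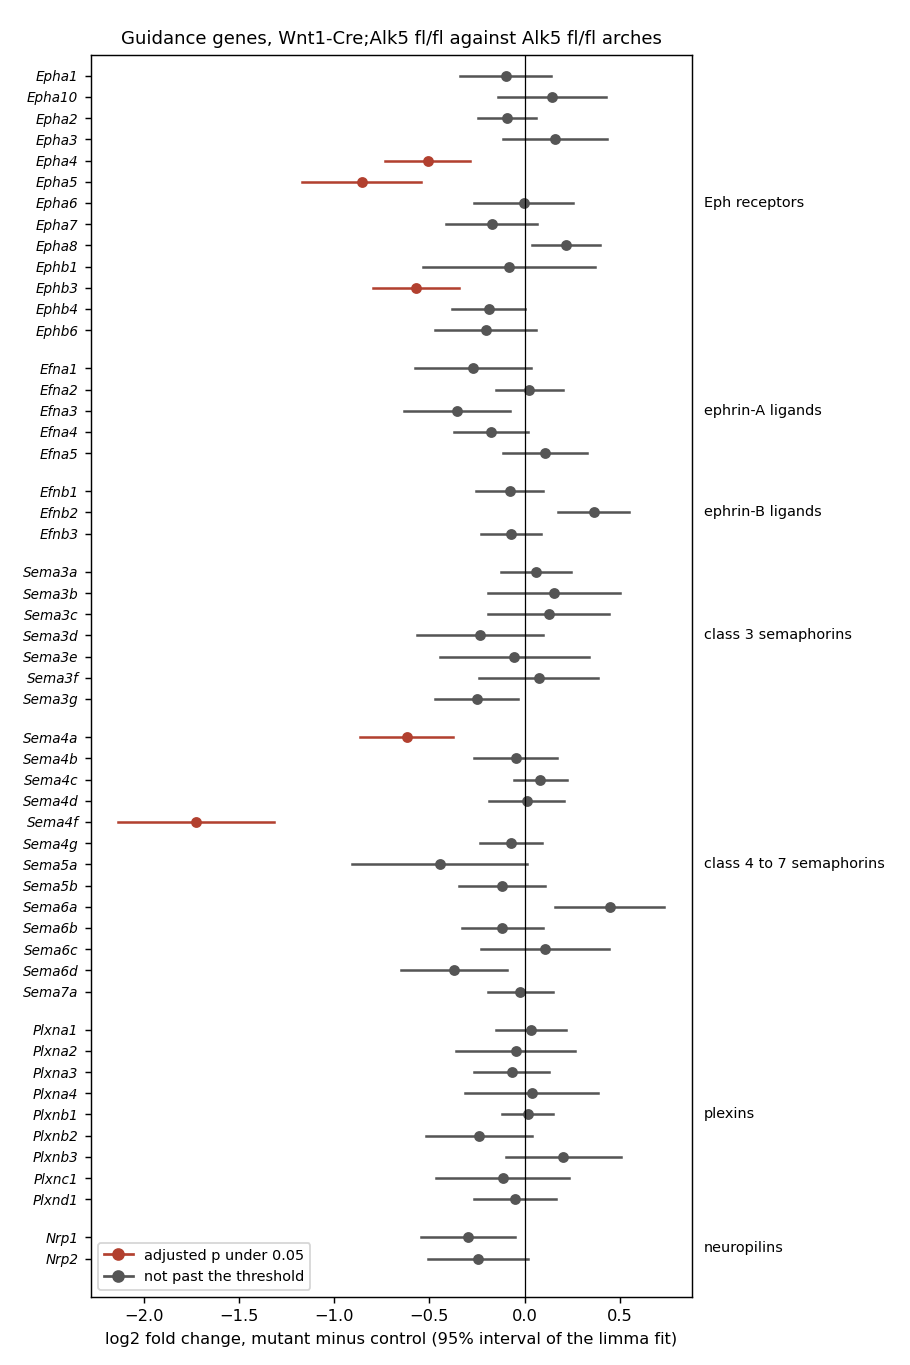
Log2 fold change (mutant minus control) of the brightest probe set of each of the 52 guidance genes, by role, with the 95% interval of the limma fit on 4 mutant and 4 control arrays. The 5 genes past the adjusted p of 0.05 all lie left of 0, between -1.73 for Sema4f and -0.51 for Epha4.

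The sequence around the start of the 5 genes that fell is shown because these are the members that passed the threshold. Each window runs from 250 bases before to 50 after an annotated transcript start and is given 5′ to 3′ on the strand of the gene, from RefSeq (GRCm38.p6). Capitals mark CAGAC or its reverse complement GTCTG, a short element that Smad proteins, the transcription factors behind TGF-beta receptors, can bind. Sema4a has 4 annotated starts in the table and the outermost is shown; the others have 1.
Epha4, chr1:77515039-77515338, minus strand: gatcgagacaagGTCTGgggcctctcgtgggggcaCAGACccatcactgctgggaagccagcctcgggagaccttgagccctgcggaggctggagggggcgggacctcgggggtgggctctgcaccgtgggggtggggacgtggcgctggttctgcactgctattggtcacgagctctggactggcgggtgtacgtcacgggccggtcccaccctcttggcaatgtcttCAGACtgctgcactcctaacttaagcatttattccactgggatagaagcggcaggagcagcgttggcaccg
Epha5, chr5:84417333-84417632, minus strand: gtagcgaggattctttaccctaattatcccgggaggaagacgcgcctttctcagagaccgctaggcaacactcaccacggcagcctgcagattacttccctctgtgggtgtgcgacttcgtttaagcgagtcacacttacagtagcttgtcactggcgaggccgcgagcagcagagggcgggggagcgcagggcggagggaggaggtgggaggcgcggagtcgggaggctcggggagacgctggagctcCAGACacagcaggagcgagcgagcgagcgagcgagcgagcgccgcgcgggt
Ephb3, chr16:21204545-21204844, plus strand: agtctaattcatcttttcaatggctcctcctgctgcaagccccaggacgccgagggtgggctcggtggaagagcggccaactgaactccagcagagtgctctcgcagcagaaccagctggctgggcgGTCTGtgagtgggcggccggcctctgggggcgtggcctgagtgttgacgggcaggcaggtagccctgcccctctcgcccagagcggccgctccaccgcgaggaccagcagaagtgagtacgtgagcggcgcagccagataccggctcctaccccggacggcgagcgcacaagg
Sema4a, chr3:88461133-88461432, minus strand: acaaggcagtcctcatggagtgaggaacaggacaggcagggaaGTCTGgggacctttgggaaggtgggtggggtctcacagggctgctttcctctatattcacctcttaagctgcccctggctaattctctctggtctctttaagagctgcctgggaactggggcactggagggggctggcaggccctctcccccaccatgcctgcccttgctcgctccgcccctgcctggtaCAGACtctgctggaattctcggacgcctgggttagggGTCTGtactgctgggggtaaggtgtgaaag
Sema4f, chr6:82939720-82940019, minus strand: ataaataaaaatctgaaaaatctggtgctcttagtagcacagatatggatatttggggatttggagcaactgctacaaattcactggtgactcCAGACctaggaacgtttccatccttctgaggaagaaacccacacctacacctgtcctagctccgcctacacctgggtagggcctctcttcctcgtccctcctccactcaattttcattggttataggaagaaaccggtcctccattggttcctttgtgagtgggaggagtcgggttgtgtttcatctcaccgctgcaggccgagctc

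The CAGAC element, searched on both strands, occurred 3 times in the Epha4 and Sema4a windows and 1 time each in those of Epha5, Ephb3 and Sema4f. It is common: 49.6% of all 32851 windows of this length held it, and 36 of the 60 windows (60.0%) of the 46 guidance genes that had one in the table. The GC box GGGCGG stood in 35.7% of all windows and in 76.7% of those of guidance genes. For the CCAAT box these shares were 37.4% and 31.7%, and for the TATA box TATAAA 13.6% and 1.67%. The windows of guidance genes were also richer in G and C (median 64.0%, against 52.7% in all windows) and in CG dinucleotides (median 19.5 against 7). The part of this composition in the motif shares was not tested. Of the 5 windows shown, Sema4f alone held no GC box and had 2 CCAAT boxes, and 0 of the 5 held the TATA box. A match is a description of letters and shows no binding.

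The targeted gene and the arrays were checked first. The brightest Tgfbr1 probe set read 12.97, 12.99, 12.98 and 12.99 in mutants 1 to 4 and 12.82, 12.71, 12.90 and 12.73 in controls 1 to 4 (log2), so it was not lower in the mutants (difference 0.19; p = 0.0286 in a two-sided exact permutation test over 70 relabelings, which can give no smaller value; limma adjusted p = 0.232). The other 2 Tgfbr1 probe sets differed by 0.51 and 0.30 (exact permutation p = 0.0857 and 0.2). Their position relative to the floxed exon is unknown here, so they do not test the deletion. Mutant 3 stood apart, with an SD over all probe sets of 2.42 where the other arrays had 2.52 to 2.56, and its correlations with the others began at 0.986, against 0.993 among the rest. Without it the same 5 guidance genes fell, and Efnb2 and Sema3c rose, where 3.40% of all genes were called. Markers of arch mesenchyme (Prrx1, Twist1, Pdgfra, Hand2, Dlx5, Dlx6, Msx1 and Dlx2) summed to 26259 to 28819 in the mutants and 30827 to 34992 in the controls on the linear scale, and 1 of 8, Dlx2, passed and rose. Macrophage markers rose in 7 of 8 (median 1.20), their sum being 3281 to 4450 in the mutants and 1551 to 1757 in the controls.

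Among 13 Eph receptor genes, 3 fell, 0 rose and 10 did not pass. Epha4 encodes a receptor unusual in binding ephrins of both classes. Its probe set read 10.68, 10.90, 10.68 and 10.62 in mutants 1 to 4, against 11.11, 11.40, 11.33 and 11.07 in controls 1 to 4. Every mutant was below every control, and the change was -0.51 ± 0.10 (SE), or 1.42-fold lower (limma adjusted p = 0.0356). All 5 probe sets of Epha4 were below 0, from -0.71 to -0.41, and their mean was at -0.53 without passing (limma adjusted p = 0.273).

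Ephb3 encodes a receptor for B-class ephrins that acts in the mouse palate. It read 10.12, 10.28, 9.80 and 10.01 in mutants 1 to 4 and 10.65, 10.62, 10.67 and 10.55 in controls 1 to 4. The controls lay within a narrow band (SD 0.05, n = 4), the mutants were more spread (SD 0.20, n = 4), and the groups did not overlap. The change was -0.57 ± 0.10 (SE), 1.48-fold lower (limma adjusted p = 0.0242), and Ephb3 has 1 probe set on the array.

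Epha5, a receptor for A-class ephrins best known from neurons, was dim in both groups, at the 19.7th percentile of all genes by brightness. It read 4.72, 5.25, 4.68 and 4.89 in mutants 1 to 4, against 5.65, 5.97, 5.80 and 5.53 in controls 1 to 4, with no overlap. The change of -0.86 ± 0.14 (SE) is 1.81-fold lower (limma adjusted p = 0.0182). Its other probe sets were at -0.63, -0.17 and 0.23, so 1 of the 4 had the opposite sign, and over the mean of all 4 the change was -0.35 (limma adjusted p = 0.0774). The brightest differed in change from them by -0.23, -0.69 and -1.09. Exact permutation tests of the per-array difference gave p = 0.143, 0.0286 and 0.0286, the last being the smallest possible. Adjusted over 16 such pairs these were 0.286, 0.153 and 0.153, and few pairs at the smallest p cannot pass that adjustment.

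The remaining 10 Eph receptor genes changed by -0.21 to 0.22. Epha3, a receptor for A-class ephrins read from the probe set with the highest mean of its group, had values of 11.88, 12.18, 11.91 and 11.70 in mutants, against 11.95, 11.57, 11.64 and 11.87 in controls, which overlapped (change 0.16, 95% interval -0.11 to 0.43). Epha7, another A-class receptor, was at -0.17 (95% interval -0.41 to 0.06). The EphB genes Ephb4, the venous partner of ephrin-B2, and Ephb6, which lacks kinase activity, were at -0.19 and -0.21 and Ephb1 at -0.08, so that all 4 EphB genes measured were below 0 although 1 passed. Epha8 was 0.22 with all mutants above all controls, without passing (limma adjusted p = 0.251).

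**Figure D2:**
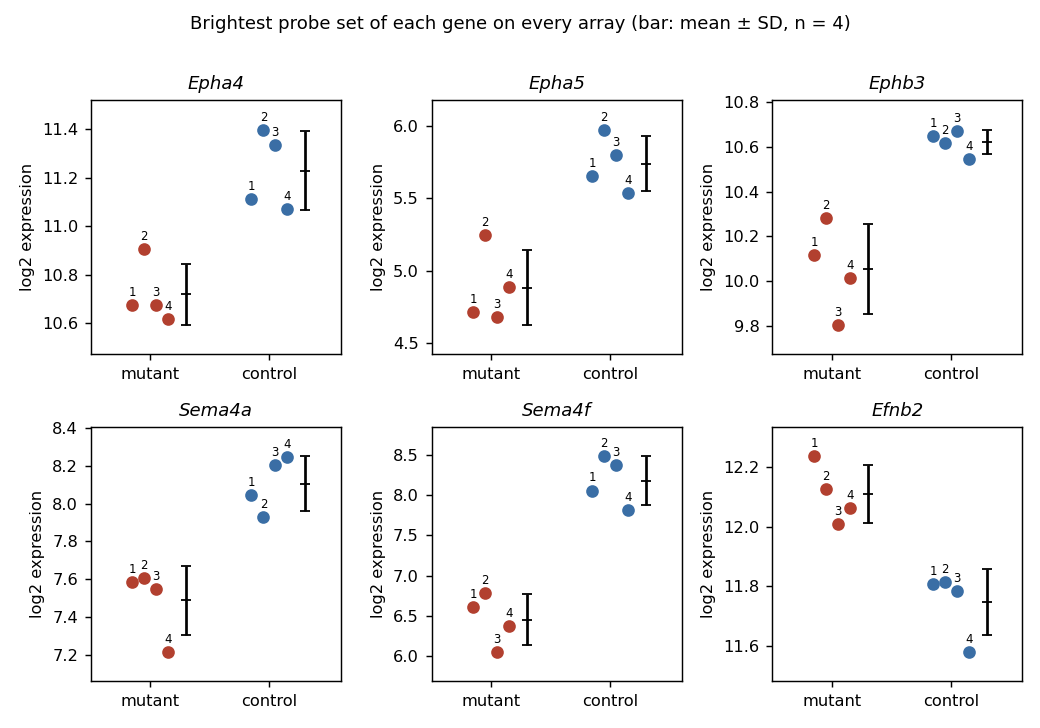
Log2 expression of the brightest probe set on each array (points, numbered by replicate), with mean ± SD (n = 4), for the 5 genes that fell and for Efnb2. In each panel the mutant points, at left, and the control points do not overlap, the mutants being higher in Efnb2 and lower in the others.

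None of the 8 ephrin genes passed (0 in limma at the adjusted threshold, 2 at an unadjusted p under 0.05). Efnb2, a transmembrane ligand for EphB receptors and for EphA4 that marks arteries and acts in neural crest cells, came nearest. It read 12.24, 12.13, 12.01 and 12.07 in mutants 1 to 4 and 11.81, 11.82, 11.78 and 11.58 in controls 1 to 4. All mutants were above all controls, with a change of 0.36 ± 0.08 (SE) and a limma adjusted p of 0.0607. All 4 Efnb2 probe sets were above 0, at 0.23 to 0.36, and Efnb2 passed in 6 of 18 alternatives, with adjusted p-values of 0.00843 to 0.644. Epha4 and Ephb3, whose proteins can bind ephrin-B2, were lower in the mutants, and a relation between these changes and that of Efnb2 was not tested. Efnb1, the X-linked ligand gene of craniofrontonasal syndrome in humans, was at -0.08 (95% interval -0.25 to 0.10), and Efnb3 at -0.07.

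The A-class ligand genes Efna1, Efna3 and Efna4 follow each other on chromosome 3 with no other protein-coding gene between them in the RefSeq table. Their changes were -0.27, -0.36 and -0.18, and none passed (limma adjusted p = 0.439, 0.228 and 0.434). Efna3 read 6.42, 6.54, 6.04 and 6.46 in mutants and 6.79, 6.72, 6.87 and 6.49 in controls, overlapping at control 4. Both Efna3 probe sets were at -0.36. Efna2 read 10.68, 10.71, 10.55 and 10.79 in mutants and 10.53, 10.68, 10.70 and 10.73 in controls, a change of 0.02 (95% interval -0.15 to 0.20). Efna5, an A-class ligand outside this cluster, was at 0.11.

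Of the 7 secreted class 3 semaphorin genes, 0 passed in limma and 1 had an unadjusted p under 0.05. That was Sema3g, a semaphorin of vessels, which read 6.84, 6.98, 7.12 and 6.83 in mutants and 6.99, 7.21, 7.33 and 7.26 in controls (change -0.25, limma adjusted p = 0.293). Sema3a, a repellent of growing axons, read 10.74, 10.87, 10.61 and 10.66 in mutants and 10.66, 10.76, 10.67 and 10.54 in controls. These overlapped, with a change of 0.06 (95% interval -0.12 to 0.24). Sema3c, known from crest cells of the cardiac outflow tract, was at 0.13 over all arrays (limma adjusted p = 0.762), with mutant 3 at 8.79 and the other mutants at 9.40 to 9.48, against 9.06 to 9.21 in controls. Without mutant 3 its change was 0.29 (limma adjusted p = 0.0397).

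Sema3f, a ligand for neuropilin-2, was read differently by its probe sets. The brightest, which belongs to a type whose probes can also match other sequences (suffix _x_at), was at 0.08, and the other 2 were at -0.40 and -0.38. The difference between them did not pass an exact permutation test of the per-array difference (p = 0.114 for both, 0.261 adjusted over the 16 pairs of probe sets compared this way). These genes and pairs were chosen after their values were seen.

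Among 13 genes of membrane semaphorins of classes 4 to 7, 2 fell and 11 did not pass. Sema4f, a transmembrane semaphorin best known from neurons and glial precursors, had the largest change of all 52 guidance genes. It read 6.60, 6.78, 6.06 and 6.37 in mutants 1 to 4, against 8.06, 8.48, 8.37 and 7.81 in controls 1 to 4. The gap between the groups was wider than the spread within either (SD 0.31 in mutants and 0.31 in controls, n = 4 each), and the change was -1.73 ± 0.18 (SE), 3.31-fold lower (limma adjusted p = 0.00301). Without mutant 3 it was -1.59 (limma adjusted p = 0.00515). This probe set is also of the _x_at type. The second Sema4f probe set averaged 6.94 ± 0.30 in mutants and 7.20 ± 0.25 in controls (SD, n = 4 each), a change of -0.26 with overlapping groups. The values of the 2 probe sets differed in change by -1.47 (exact permutation p = 0.0286, the smallest possible). Adjusted over the 16 pairs this permutation p was 0.153. It could not come under 0.05 unless many pairs reached the smallest p, so it does not decide whether the 2 probe sets differ. Over the mean of both, Sema4f changed by -0.99 (limma adjusted p = 0.00675).

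Sema4a, a membrane semaphorin known for roles in T cells and in the retina, read 7.58, 7.60, 7.55 and 7.22 in mutants 1 to 4 and 8.05, 7.93, 8.21 and 8.25 in controls 1 to 4. Mutant 4 was the lowest array and no mutant reached a control. The change was -0.62 ± 0.11 (SE), 1.54-fold lower (limma adjusted p = 0.0238). The brightest Sema4a probe set is of the _x_at type as well. The second Sema4a probe set changed by -0.51, again with no overlap. It did not pass in the fit over all probe sets (limma adjusted p = 0.0517).

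**Figure D3:**
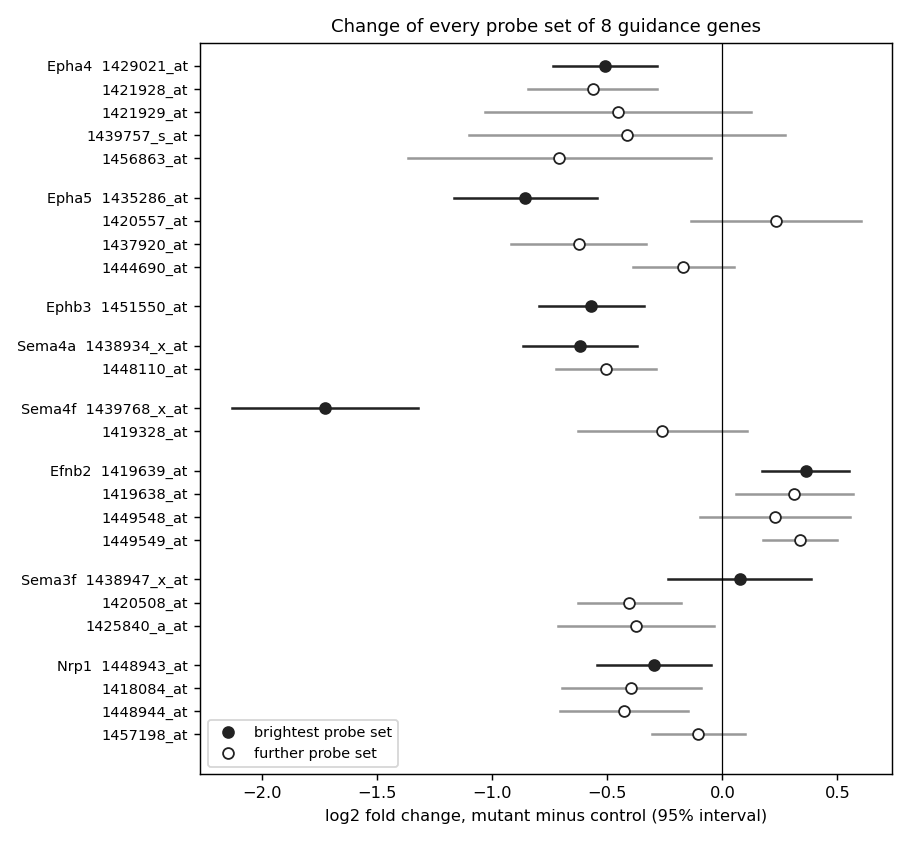
Log2 fold change (mutant minus control) with its 95% interval for every probe set of 8 guidance genes, from a limma fit over all probe sets; filled points are the brightest probe set of each gene. The probe sets of Epha4, Sema4a and Efnb2 lie on 1 side of 0, whereas those of Sema4f differ in size (-1.73 and -0.26) and those of Epha5 and Sema3f fall on both sides.

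The 4 other class 4 genes were at -0.07 to 0.08. Sema4c, a ligand of plexin-B2, read 9.93, 9.93, 9.89 and 9.86 in mutants and 9.77, 9.87, 9.79 and 9.85 in controls, with a 95% interval of -0.06 to 0.22. In class 5, with its thrombospondin repeats, and class 6, whose members can also act as receptors, Sema5a was at -0.45, Sema6d at -0.37 and Sema6a at 0.45. Sema6a read 7.90, 8.14, 7.70 and 7.68 in mutants and 7.66, 7.26, 7.47 and 7.26 in controls, all mutants being higher, without passing (limma adjusted p = 0.132; it passed in 2 of 18 alternatives). Its other probe sets were at -0.01 and 0.09. The other 3 Sema5a probe sets were at -0.48, -0.20 and 0.01, and the 3 further Sema6d probe sets were at 0.06 to 0.15.

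The receptors of the semaphorins showed small differences. Of 9 plexin genes 0 passed in limma, and 0 had an unadjusted p under 0.05 either; their changes ran from -0.24 to 0.20. Plxnb2, a receptor for class 4 semaphorins, read 10.44, 10.49, 10.03 and 10.04 in mutants and 10.51, 10.61, 10.53 and 10.31 in controls. Mutants 3 and 4 lay below the others, and the change was -0.24 (95% interval -0.52 to 0.04). Plxna1, Plxna2, Plxna3 and Plxna4, the signalling partners of neuropilins, were at 0.03, -0.05, -0.07 and 0.04, and Plxnd1, a receptor of vessels, was at -0.05 (95% interval -0.27 to 0.16).

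Both neuropilin genes were below 0 without passing. Nrp1, a co-receptor for class 3 semaphorins and for VEGF, read 10.51, 10.81, 10.81 and 10.58 in mutants and 11.16, 10.92, 11.07 and 10.76 in controls. Control 4 lay among the mutants, and the change was -0.30 (95% interval -0.54 to -0.05, limma adjusted p = 0.262). All 4 Nrp1 probe sets were below 0, from -0.43 to -0.10. Nrp2 was at -0.24 (limma adjusted p = 0.413), and its other 3 probe sets were at -0.15, -0.14 and near 0.

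Over all roles, 34 of the 47 genes that did not pass had a 95% interval that stayed within 0.5 of 0 on the log2 scale, and for the others a change of that size lay inside the interval. The 52 genes had 123 probe sets. In the fit over all 45101 probe sets, where 0.845% were called and 0.49% were called as lower, 4 of the 123 passed, all lower: the brightest of Epha5, Ephb3, Sema4a and Sema4f. Of the 71 further probe sets 47 had the sign of the brightest one, and so did 28 of the 34 that were above the median brightness of the arrays. Of the 9 further probe sets of the 5 genes that fell, 8 were below 0 and 0 passed in limma, with 4 at an unadjusted p under 0.05.

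Leaving out 1 array changed which of the 5 genes passed, and the share of all genes called changed too. Sema4f passed under each of the 17 alternatives that measured it, with adjusted p-values of 3.1e-04 to 0.0172. These alternatives read its _x_at probe set, alone or averaged with the second one. The second Sema4f probe set alone did not pass in the fit over all probe sets (-0.26, limma adjusted p = 0.690). Without control 3 the limma adjusted p was 0.141 for Epha4, 0.073 for Epha5, 0.0983 for Ephb3 and 0.0983 for Sema4a. Without mutant 4 it was 0.126 for Epha4, 0.0626 for Epha5, 0.0879 for Ephb3 and 0.0592 for Sema4a, so Sema4f alone passed in both cases. Over all genes the share called was 0.572% without control 3 and 0.594% without mutant 4, so fewer genes passed in the whole table as well. Without control 1, where 0.83% of all genes were called, Epha4 (0.0691), Ephb3 (0.0785) and Sema4a (0.0639) did not pass. Without control 2 (0.599% of all genes), Epha4 (0.128), Epha5 (0.069) and Ephb3 (0.0911) did not. Without mutant 1 (1.09% of all genes), Epha4 (0.091) and Ephb3 (0.0536) did not. The 5 genes kept their direction throughout, and Epha4 ranged from -0.71 to -0.45, Ephb3 from -0.65 to -0.49 and Sema4a from -0.68 to -0.53. The ranges were wider for Epha5 (-0.98 to -0.35) and Sema4f (-1.85 to -0.99). Control 4 was the control nearest to the mutants in 4 of the 5 genes. As a share of the distance between the mutant mean and the mean of the other controls, it lay 0.374 towards the mutants in Epha4, 0.295 in Epha5, 0.266 in Sema4f and 0.169 in Ephb3, and it lay away from them in Sema4a (-0.323).

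**Figure D4:**
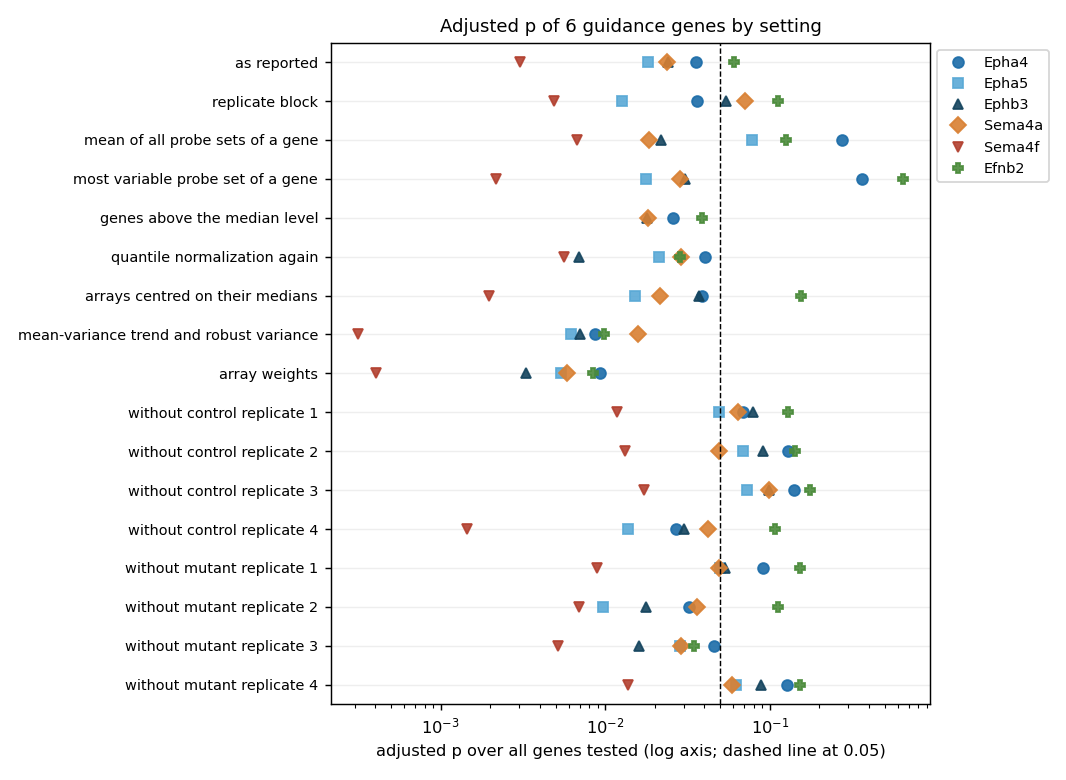
Limma adjusted p (log axis) of 6 guidance genes under each setting; the dashed line marks 0.05, and a gene has no point where a setting did not measure it. Sema4f lies left of the line in every setting shown, whereas Epha4, Epha5, Ephb3 and Sema4a cross it when control 3 or mutant 4 is left out, and Efnb2 lies right of it as reported (0.0607).

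Genes that work beside these families were read from 4 lists with 102 genes, of which 99 were measured and 3 were not analysed here. In these lists 1 gene rose and 4 fell (5.05%, where 2.14% of all genes were called), and the median change was -0.05. Of 25 genes of the Slit, Robo, netrin, Unc5 and Rgm guidance systems, Robo1, a receptor for Slit proteins, fell. It read 11.39, 11.62, 11.16 and 11.21 in mutants and 12.07, 11.95, 12.04 and 11.82 in controls, without overlap (change -0.62 ± 0.11 SE, limma adjusted p = 0.0242; 0.0983 without control 3), and it lost the call in 6 of 18 alternatives. Its ligand gene Slit2 (-0.65, limma adjusted p = 0.0911) and the netrin receptor gene Unc5c (0.41, limma adjusted p = 0.0628) did not pass.

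Among 24 partners of Ephs and ephrins, the ubiquitin ligase gene Pdzrn3 fell (-0.72 ± 0.14 SE, limma adjusted p = 0.0356; -0.25 and an adjusted p = 0.296 over the mean of its probe sets), and it lost its call in 7 of 18 alternatives. Among 31 partners of semaphorins and plexins, Crmp1, a cytoplasmic mediator of semaphorin 3A signals, fell by 0.49 ± 0.09, and Nrcam, an adhesion molecule that joins neuropilin complexes, fell by 0.44 ± 0.09 (SE; limma adjusted p = 0.0276 and 0.049). Crmp1 lost its call in 8 of 18 alternatives, with adjusted p-values of up to 0.117. Nrcam lost its call in 13 of 17 alternatives and was at -0.04 over the mean of its probe sets. Trem2, a macrophage receptor that can associate with plexin-A1, rose by 0.61 ± 0.10 (SE, limma adjusted p = 0.0149), beside the macrophage markers given above, and their part in it was not tested. Trem2 lost its call in 4 of 17 alternatives, over which its change went down to 0.37 and its limma adjusted p up to 0.0691. Of 19 measured cytoskeletal effectors that both systems share, 0 passed in limma and 2 had an unadjusted p under 0.05; the smallest p was that of Limk1 (-0.46, limma adjusted p = 0.0885).

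The arch holds several cell types that express guidance genes, so markers of these types were read from the same arrays. Of 10 neuronal markers, Gap43 rose by 1.34 and Tubb3 fell by 1.67 (log2), and 8 of the 10 were below 0, among them Stmn2 (-0.95) and Nefl (-0.70), which did not pass. The linear sum of the list was 3627 to 4172 in mutants and 2785 to 3335 in controls. Without Gap43, left out after the values were seen, the sum of the other 9 was 1216 to 1683 in mutants and 1736 to 2344 in controls, lower in every mutant. Of 4 markers of Schwann cells and glial crest, Foxd3 fell (-0.45), and the sums overlapped (948 to 1330 in mutants and 930 to 1610 in controls). Of 10 endothelial markers Erg fell (-0.67) with overlapping sums (3639 to 4879 in mutants and 4121 to 4659 in controls). In limma 2 had an unadjusted p under 0.05, Erg and Cldn5 (0.21), and 6 of the 10 were below 0. Pecam1 and Tek were at -0.18 and Tie1 at 0.15, and Kdr, Cdh5 and Emcn were at -0.01, 0.01 and 0.02. Of 10 epithelial markers 0 passed in limma (1 had an unadjusted p under 0.05), with sums of 5539 to 9276 in mutants and 8080 to 10648 in controls. The 7 skeletal muscle markers gave 0 calls in limma (1 at an unadjusted p under 0.05) with sums of 3148 to 8153 in mutants and 3034 to 12128 in controls, and 4 erythroid markers 0 (2 unadjusted) with sums of 596 to 723 in mutants and 688 to 923 in controls. The part of any of these cell types in the changes of the guidance genes was not tested.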

How the data were processed

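The authors deposited log2 expression values for each probe set of the 8 arrays, made with RMA per the submitters' processing notes (its version is unknown here). RMA equalizes arrays and shrinks differences of dim probe sets. Of 45101 probe sets, 34958 had 1 symbol, 932 several and 9211 none, and only the first kind was named; all 52 members matched the RefSeq table by Entrez identifier. Mutants (4 arrays) were set against controls (4 arrays) with lmFit and eBayes of limma 3.58.1 under R 4.3.3, without covariates and with Benjamini-Hochberg adjustment over 18194 genes. Levels of different probe sets cannot be compared. The members and gene lists were chosen with earlier results of these data known. Values on every array are given for members past the threshold, for the smallest p and the brightest probe set in each role group, and for members without overlap and over 0.5 in size; Sema6a, Sema3c, Sema3f, Epha8, the motifs, the pairs of probe sets and the list genes beyond the calls were added after their values were seen. Of each of the 4 other lists, calls (at most 6) or the smallest p were named. The code was tested on simulated arrays. The 18 alternatives cover the replicate block, the choice of probe set, dim genes, scaling, variance models, thresholds and each array left out. Precision is limited by the number of arrays.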

Additional observations from a re-analysis of the deposited data

Results flagged for a closer look

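In 104 groups of 4 arrays (52 genes, mutants and controls), 9 held an array far from the other 3 by Dixon's test at the 95% level, which chance gives for about 1 group in 20. Mutant 3 was the array in 5 of the 9. It was low in Efna1 (8.031, the others 8.574 to 8.679), Sema3c (8.79, the others 9.396 to 9.483), Sema7a (6.764, the others 6.994 to 7.003) and Plxnd1 (8.689, the others 9.022 to 9.069), and high in Plxnb3 (7.445, the others 6.843 to 6.87). Mutant 2 was high in Ephb1 (7.776, the others 7.126 to 7.219) and Nrp2 (10.51, the others 10.13 to 10.14). Mutant 4 was low in Sema4a (7.216, the others 7.548 to 7.604), and control 4 was low in Efnb2 (11.58, the others 11.78 to 11.82).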

How the results depend on the processing

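Over 20 named genes and 18 alternatives, 278 of 354 values kept direction and side of the threshold, 61 lost the call, 12 gained one and 3 changed sign. Those 3 were of Efna2, near 0 as reported: -0.0012 with arrays centred on their medians, and -0.0199 to 0.0675 with 1 array left out. The count of guidance genes called was 5 as reported, where 2.14% of all genes were called. It was 3 with the replicate block (1.61% of all genes), 3 over the mean of probe sets (1.87%) and 3 with a change of at least 1.5-fold required (1.54%). It was 10 with array weights (7.45% of all genes) and 1 to 7 with 1 array left out (0.572% to 3.40%). For the other guidance and signalling genes (5) the count was 2 with the block, 1 over the mean of probe sets and 12 with array weights. It was 3 with centred arrays (1.69% of all genes) and 9 at an adjusted p under 0.1 (3.65%). It was 3 with 1.5-fold required and 0 to 7 with 1 array left out. Probe sets of guidance genes (4) numbered 7 with a variance trend and robust variance, 12 with array weights, 9 at an adjusted p under 0.1 and 1 to 6 with 1 array left out. Of all genes, 3.18% were called with the variance trend, 7.45% with array weights and 3.65% at an adjusted p under 0.1. The share of all probe sets called was not counted under these settings, so these probe set counts have no background here. All genes (390) numbered 620 with quantile normalization again, 1356 with array weights, 664 at an adjusted p under 0.1 and 104 to 618 with 1 array left out, with more higher than lower genes without control 1, 2 or 3 or mutant 3 or 4. Tgfbr1 (0.19) passed with the variance trend and robust variance (adjusted p = 0.0282). The filter on dim genes left out Epha5 and Sema4f, and the 2 alternatives that join or choose probe sets give no count of probe sets. The causes were not tested.

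Of the same-numbered arrays, mutant 4 and control 4 deviated together (correlation 0.406), each being the closest match of the other. Numbers 1, 2 and 3 did not (0.033, 0.002 and -0.124), so 1 of 4 mutants was closest to its own number. The numbers were not taken as pairs, and a factor shared by the arrays numbered 4 was not tested. With the block Ephb3 (limma adjusted p = 0.0538), Sema4a (0.0711), Pdzrn3 (0.0538), Crmp1 (0.0711) and Nrcam (0.0718) did not pass.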
